A study of Mus musculus with 192 samples.

Results

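The mitochondrial genome of the mouse encodes 37 genes, and all 37 had a row in the table of RNA molecule counts, out of 24264 genes. They were taken by name, as the features whose symbol begins with mt-, and comprise 2 ribosomal RNA (rRNA) genes, 22 transfer RNA (tRNA) genes and 13 protein-coding genes. The cells were of the mouse embryonic stem (ES) line R1, cultured over irradiated embryonic fibroblasts as feeders. Feeders had been allowed to settle out, and dead and early-apoptotic cells had been removed, before the suspension was frozen. Thawed cells were captured in 96 chambers (wells) of 1 microfluidic chip and lysed together with synthetic spike-in RNAs, and no genotype or treatment set any of them apart. The cDNA was made from poly(A) RNA per the labels, and sequencing covered each library before and after another 9 cycles of PCR. The table has 1 column per well for both library forms. A count is a number of cDNA molecules, each placed by its 5' end. All wells come from 1 culture, which is 1 sample, so spreads over wells are given and no p-value was computed. The wells were set in ranges by their total of gene molecules: 45 low-RNA wells with at most 40000 and 51 RNA-rich wells with at least 50000, with 0 wells between.

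Both strands of the circular mitochondrial genome are transcribed into long precursors that carry many genes. tRNAs lie between most of the other genes, and cutting them out frees the rRNAs and messenger RNAs, most of which then receive short poly(A) tails. The messenger RNAs encode core subunits of respiratory complexes I, III and IV and of ATP synthase, while every protein that copies, transcribes, processes or translates the mitochondrial genome comes from the nucleus.

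Most of the tRNA results turn on a few short genes, shown here with the anticodon in capitals. Sequences are from the GENCODE M21 transcripts (GRCm38), 5' to 3' on the strand of the gene, and were copied as DNA. They are the tRNAs for cysteine (mt-Tc, chrM:5192-5257, minus strand), glutamate (mt-Te, chrM:14071-14139, minus strand), serine (mt-Ts2, chrM:11613-11671, plus strand), proline (mt-Tp, chrM:15356-15422, minus strand) and methionine (mt-Tm, chrM:3845-3913, plus strand).
mt-Tc: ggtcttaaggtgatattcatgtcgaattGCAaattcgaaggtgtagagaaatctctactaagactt
mt-Te: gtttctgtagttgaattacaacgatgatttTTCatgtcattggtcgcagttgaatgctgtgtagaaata
mt-Ts2: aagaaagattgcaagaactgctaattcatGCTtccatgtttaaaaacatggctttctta
mt-Tp: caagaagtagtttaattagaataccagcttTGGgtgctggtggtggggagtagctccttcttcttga
mt-Tm: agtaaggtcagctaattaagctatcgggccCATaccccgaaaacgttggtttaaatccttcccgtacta

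The window in which molecules were counted was not always the annotated gene. In 15 of the 37 features, 10 of them tRNAs, it began 20 or more bases before the annotated start, and the extension was at most 99 bases. In mt-Ti and mt-Tw, the tRNA genes for isoleucine and tryptophan, all 99 added bases lay on the same strand in the end of mt-Nd1 and of mt-Nd2. The counted windows are printed with the added bases in lower case and the annotated tRNA gene in capitals. The window of mt-Ti is chrM:3607-3774 and that of mt-Tw is chrM:4851-5016, both on the plus strand.
mt-Ti: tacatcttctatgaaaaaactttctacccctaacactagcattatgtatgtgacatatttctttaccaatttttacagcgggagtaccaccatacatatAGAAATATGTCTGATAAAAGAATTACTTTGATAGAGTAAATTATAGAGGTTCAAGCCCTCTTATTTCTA
mt-Tw: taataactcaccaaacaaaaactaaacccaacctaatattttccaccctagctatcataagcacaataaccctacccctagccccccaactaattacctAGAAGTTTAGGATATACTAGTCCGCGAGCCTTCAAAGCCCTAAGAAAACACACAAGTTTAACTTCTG
A molecule whose 5' end lies in the lower-case part of these windows starts inside the messenger RNA of complex I, so counts of mt-Ti and mt-Tw cannot be read as tRNA alone. The window of mt-Tm was extended by 70 bases, 68 of which lie opposite another mitochondrial gene. Molecules of a mature tRNA and of its precursor cannot be told apart in any of the 22 tRNA features.

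Low-RNA wells held 8774 to 35543 gene molecules (median 22234) and RNA-rich wells 51390 to 573648 (median 98750). Spike-in molecules had medians of 6098 and 7992 in the 2 ranges. The spike-in totals of wells C03 (36465) and H03 (55740), both RNA-rich, and H12 (926), low-RNA, were more than 4 times above or below the median of 6998.5, and results are given with and without them where this matters. C03 and H03 held 21.7% of the mitochondrial molecules of the RNA-rich wells. All 15 listed ES cell markers had a molecule in both ranges, with median summed levels of 54.1 and 92.5 per 10000 gene molecules in low-RNA and RNA-rich wells. Pou5f1, a defining pluripotency factor, was found in 39 of 45 and 51 of 51. Of the 14 feeder markers 9 and 12 were found in the 2 ranges, Lum and Postn being at 0. Their summed level per 10000 gene molecules was 0.465 to 9.87 (median 3.04) in low-RNA and 0.738 to 108 (median 2.70) in RNA-rich wells. Of the 8 trophectoderm markers 7 were found in each range, with Elf5 at 0 and medians of 6.21 and 3.61, and of the 6 primitive endoderm markers 4 and 5, with Sox17 at 0 and medians of 0 and 0.0842. The part that these cells have in the results was not tested beyond leaving wells out. Images of the chambers were not used here, so an empty chamber or a damaged cell was not recognised.

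Mitochondrial RNA was near the level of RNA-rich wells in wells where nearly all other RNA was low. Low-RNA wells held 0.457 to 1.74 mitochondrial molecules per spike-in molecule, with a median of 1.11. RNA-rich wells held 0.827 to 2.01, with a median of 1.26, and the 2 ranges overlapped over most of their width. The ratio of the medians was 0.878. Molecules of all other genes had medians of 2.54 and 11.1 per spike-in molecule, a ratio of 0.230. Since the total of gene molecules divides the wells, the low level of the other genes follows from the division, whereas mitochondrial RNA is a minor part of that total. Dividing the wells by gene molecules other than mitochondrial ones gave a ratio of 0.872.

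As a share of gene molecules, mitochondrial RNA ranged from 7.58% to 38.3% (median 29.1%) in low-RNA wells and from 6.0% to 16.5% (median 10.4%) in RNA-rich wells. The lowest low-RNA value was that of H12. Without the wells of outlying spike-in total, low-RNA wells lay between 20.6% and 38.3% and did not overlap with RNA-rich wells. The share is divided by the same total that set the ranges. Its difference, and this separation, therefore follow in part from the division and are given as a description only. H12 had 16330 gene molecules but 16.3 other gene molecules per spike-in molecule, a value within the RNA-rich range of 5.75 to 18.5.

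**Figure D1:**
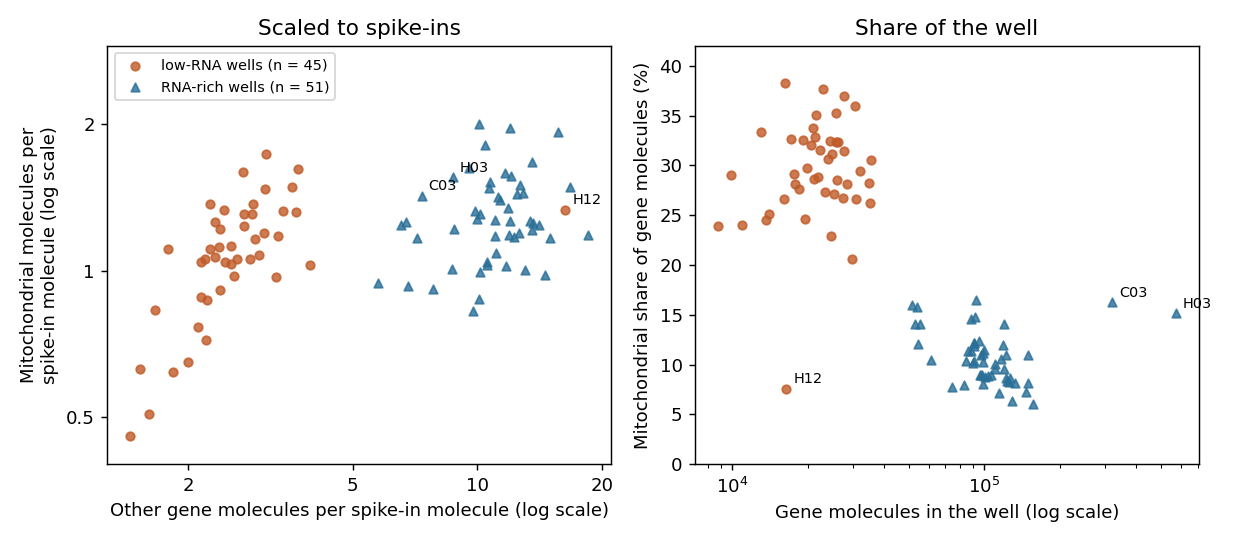
Each point is a well. Left, mitochondrial against other gene molecules, both per spike-in molecule, on log axes: the 2 ranges differ along the horizontal axis (medians 2.54 and 11.1) and overlap along the vertical one (medians 1.11 and 1.26). Right, mitochondrial share of gene molecules against the total of gene molecules on a log axis, with the 3 wells of outlying spike-in total named.

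The 3 classes of mitochondrial RNA differed in composition between the ranges. Over all wells, protein-coding genes made up 71% of 939978 mitochondrial molecules, rRNAs 25.5% and tRNAs 3.48%. Pooled over low-RNA wells, rRNAs were 28.9% of mitochondrial molecules (exact binomial 95% interval 28.8% to 29.1%) and over RNA-rich wells 23.9% (23.8% to 24%). tRNAs were 2.93% (2.87% to 2.99%) and 3.73% (3.69% to 3.78%), and protein-coding genes 68.1% (68% to 68.3%) and 72.3% (72.2% to 72.4%). These intervals, and those of ratios below, cover counting error only and are narrow beside the spread over wells.

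Well by well, the rRNA share was 22.3% to 56.6% (median 26.8%) in low-RNA and 21.4% to 29.7% (median 24.4%) in RNA-rich wells. It lay above the highest RNA-rich well in 16 of 45 low-RNA wells, and the median difference of 2.43 percentage points was smaller than the spread over wells. The tRNA share behaved the other way: it was 1.85% to 3.55% (median 2.94%) in low-RNA wells and reached 7.71% in RNA-rich wells (median 3.55%), of which 26 of 51 lay above every low-RNA well. The protein-coding share lay below the lowest RNA-rich well, 66.1%, in 13 low-RNA wells.

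**Figure D2:**
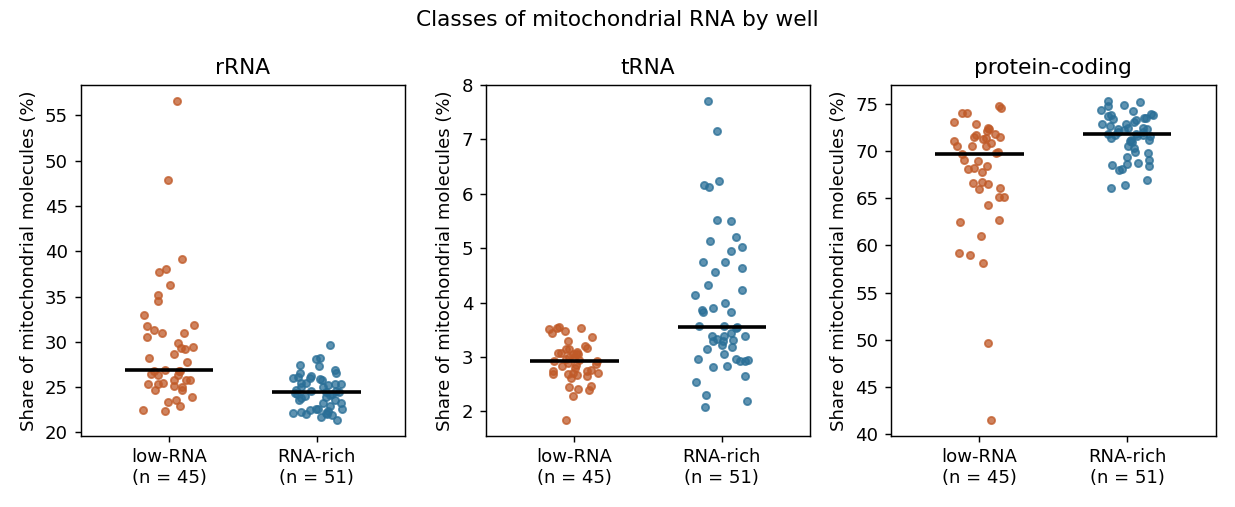
Share of a well's mitochondrial molecules in rRNA, tRNA and protein-coding genes, with 1 point per well and a bar at the median; the vertical axes do not start at 0. Low-RNA wells reach an rRNA share of 56.6%, and RNA-rich wells a tRNA share of 7.71%.

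The 2 rRNAs had nearly equal levels per spike-in molecule in the 2 ranges. mt-Rnr2 (chrM:1094-2675), the rRNA of the large subunit of the mitochondrial ribosome, was the most abundant mitochondrial feature, with 19.4% of all mitochondrial molecules. It had 220 to 2639 molecules in low-RNA wells (median 1463) and 1210 to 13938 in RNA-rich wells (median 1907). Per 1000 spike-in molecules the medians were 244 and 232. The ratio of low-RNA to RNA-rich wells, from molecules summed over wells per spike-in molecule, was 1.01 (95% interval 1.00 to 1.02). mt-Rnr1 (chrM:70-1024), the rRNA of the small subunit, had 56 to 986 molecules (median 424) in low-RNA wells. In RNA-rich wells it had 301 to 5185 (median 573), and the ratio was 1.00 (0.987 to 1.02).

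A few low-RNA wells carried the highest rRNA shares. In well D04, rRNA was 56.6% of 2867 mitochondrial molecules and protein-coding RNA 41.5%, and in B02 rRNA was 47.9% of 5080. The 16 low-RNA wells above the RNA-rich maximum held a median of 362 rRNA and 644 protein-coding molecules per 1000 spike-in molecules. The other 29 low-RNA wells held 299 and 803. The 16 wells thus had more rRNA and less messenger RNA by median, with ranges that overlapped on both measures, and they were picked by their share, so these values only describe them.

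For the mitochondrial genes as a whole, a ratio past 2-fold served as the limit. Of the 6324 genes that averaged 1 or more molecules per well, 92.6% were past 2-fold lower per spike-in molecule in low-RNA wells and 0.0633% past 2-fold higher. All 37 members are accounted for: 34 had that mean, mt-Ts1 and mt-Ty had fewer, and mt-Th had 0 molecules. Of the 34, 16 were past 2-fold lower and 0 higher, and the 16 were 15 of 19 tRNAs, 1 of 13 protein-coding genes and 0 of 2 rRNAs. The interval reached above 0.5 in 4 of the 16, namely mt-Nd6, mt-Tk, mt-Tg and mt-Tt. The median ratio was 0.575 over the 34 and 0.233 over all genes tested, whose 5th and 95th percentiles were 0.130 and 0.565. No member had every RNA-rich well above every low-RNA well, which held for 0.0316% of genes, or for 1.19% without the wells of outlying spike-in total. As a share of gene molecules, 15 of the 34 were past 2-fold higher in low-RNA wells, against 3.64% of all genes. That share is divided by the total that set the ranges, so this count restates the ratios per spike-in molecule on another scale.

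**Figure D3:**
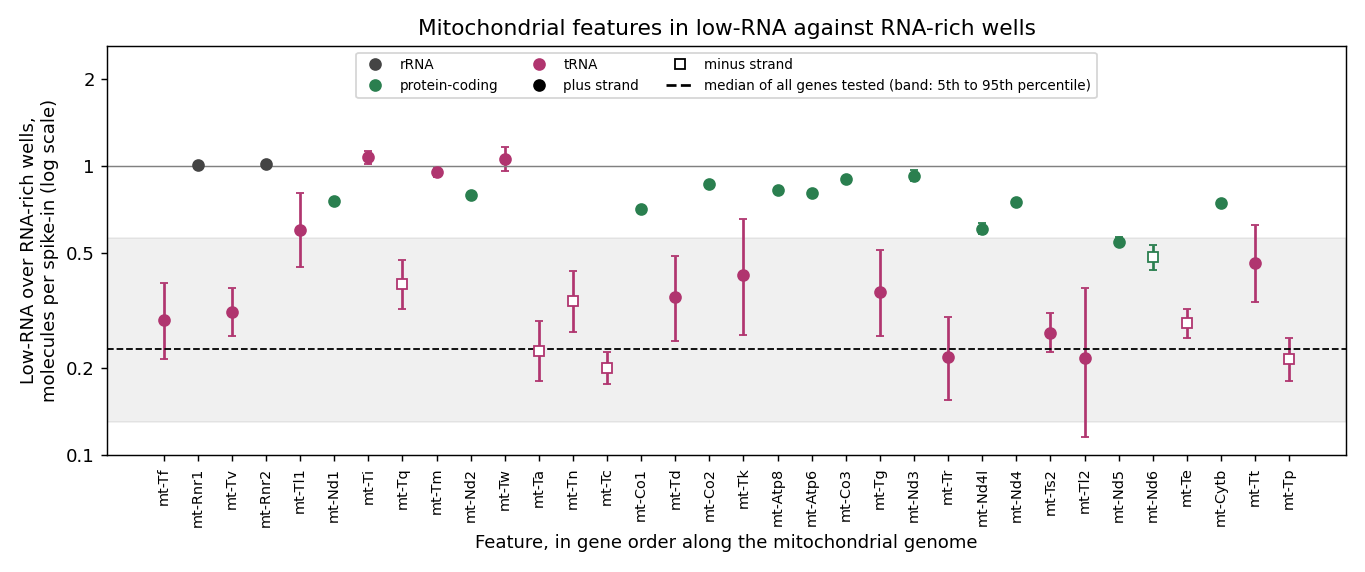
Ratio of low-RNA to RNA-rich wells in molecules per spike-in molecule (log axis) for the 34 mitochondrial features that averaged 1 or more molecules per well, in genome order; bars are 95% intervals from counting error. Both rRNAs lie at 1, protein-coding genes between 0.482 and 0.923, and 15 tRNAs at 0.462 or lower; the dashed line is the median of all genes, 0.233.

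Protein-coding genes stood between the rRNAs and the tRNAs, with a median ratio of 0.758 and a range from 0.482 to 0.923. All 13 had a ratio under 1. Their class summed to medians of 772 and 898 molecules per 1000 spike-in molecules in low-RNA and RNA-rich wells.

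Complex I, which passes electrons from NADH to ubiquinone, had 7 members and a summed ratio of 0.728 (0.720 to 0.736). The lowest ratio was that of mt-Nd6 (chrM:13552-14070), the only protein-coding gene on the minus strand. It had 2 to 23 molecules in low-RNA wells (median 10) and 7 to 176 in RNA-rich wells (median 26), and its ratio was 0.482 (0.435 to 0.533). Leaving out the wells high in keratins or feeder markers moved it to 0.530, within 2-fold. mt-Nd5 (chrM:11742-13565), which overlaps the end of mt-Nd6 on the other strand, had 25 to 172 molecules (median 90) in low-RNA wells. RNA-rich wells had 87 to 1701 (median 213), a ratio of 0.547 (0.528 to 0.567). mt-Nd4l (chrM:9877-10173) had 25 to 111 (median 60) and 60 to 996 (median 142), a ratio of 0.606 (0.581 to 0.633). In all 3 of these genes low-RNA and RNA-rich wells overlapped.

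The other complex I genes lay nearer to 1. mt-Nd1 (chrM:2751-3707) had the most molecules of the 7, with a median of 397 in low-RNA and 676 in RNA-rich wells and a ratio of 0.758 (0.745 to 0.772). mt-Nd4 (chrM:10167-11544) had medians of 209 and 334 and a ratio of 0.750 (0.732 to 0.769). mt-Nd2 (chrM:3914-4951) had medians of 130 and 199 and a ratio of 0.790 (0.766 to 0.815). mt-Nd3 (chrM:9459-9806) had medians of 67 and 90 and the highest ratio of the 13 protein-coding genes, 0.923 (0.884 to 0.964). Without the wells of outlying spike-in total mt-Nd3 had a ratio of 1.02, the only protein-coding gene to pass 1. By counting error alone, the intervals of mt-Nd6 and mt-Nd3, the ends of complex I, did not overlap. Those of some neighbours in the order, such as mt-Nd6 and mt-Nd5, did. The spread over wells does not enter these intervals, so they do not set an order of the genes beyond counting error.

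Complex III is represented by mt-Cytb (chrM:14145-15288), cytochrome b, its only subunit from this genome. It had 71 to 678 molecules (median 389) in low-RNA wells and 311 to 5037 (median 654) in RNA-rich wells, and its ratio was 0.745 (0.731 to 0.758).

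The cytochrome c oxidase subunits of complex IV, which reduces oxygen, made up 36.1% of all mitochondrial molecules. mt-Co1 (chrM:5328-6872), the catalytic subunit, had 206 to 1544 molecules (median 870) in low-RNA wells and 769 to 13682 (median 1561) in RNA-rich wells. Its ratio of 0.708 (0.699 to 0.716) was the lowest of the 3. mt-Co2 (chrM:7013-7696), which takes electrons from cytochrome c, had medians of 655 and 888 and a ratio of 0.866 (0.853 to 0.878). mt-Co3 (chrM:8607-9390), the other core subunit, had medians of 906 and 1162 and a ratio of 0.904 (0.893 to 0.915), or 0.972 without the wells of outlying spike-in total.

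The ATP synthase genes overlap in the genome and are carried on 1 messenger RNA. mt-Atp8 (chrM:7766-7969) had medians of 416 and 721 molecules and a ratio of 0.827 (0.812 to 0.841), and mt-Atp6 (chrM:7927-8607) medians of 446 and 639 and a ratio of 0.806 (0.792 to 0.819). Without the wells of outlying spike-in total the ratios were 0.799 for mt-Atp8 and 0.879 for mt-Atp6, so their order reversed. mt-Nd4l and mt-Nd4 are likewise carried together, with ratios of 0.606 and 0.750. In both pairs the counted window of the downstream gene began 99 bases before its annotated start, inside the upstream gene. The window of mt-Co3 likewise began 99 bases before its annotated start, inside mt-Atp6. Per kilobase of counted window the mean level over all wells was highest in mt-Atp8, at 2966 molecules, followed by mt-Co3 at 1410, mt-Co2 at 1279 and mt-Rnr2 at 1201, and lowest among protein-coding genes in mt-Nd6, at 46.3. Since molecules are counted by their 5' ends, a short window does not lower the count in proportion, and the value of mt-Atp8 should be read with its length of 204 bases.

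Most tRNA features had lower ratios than the rRNAs and protein-coding genes. The median over the 19 tested was 0.340, above the upper quartile of all genes tested, 0.319. Over 16 of them, without mt-Ti, mt-Tw and mt-Tm, the median was 0.303, below that quartile. Summed over the class, tRNAs had medians of 31.7 and 47 molecules per 1000 spike-in molecules in low-RNA and RNA-rich wells and a ratio of 0.657 (0.641 to 0.674). That sum mixes unlike features. Without mt-Ti, mt-Tw and mt-Tm the other 19 had medians of 6.11 and 21.9 and a ratio of 0.277 (0.263 to 0.291); leaving these 3 out was chosen after their values were seen.

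mt-Tc, the cysteine tRNA, had the lowest ratio of all members, 0.20 (0.177 to 0.227). It had 0 to 15 molecules (median 6) in low-RNA wells and 6 to 218 (median 39) in RNA-rich wells, and the 2 ranges of counts overlapped between 6 and 15. mt-Te, the glutamate tRNA, had 1 to 18 molecules (median 7) and 12 to 157 (median 26), a ratio of 0.286 (0.254 to 0.321). mt-Ts2, a serine tRNA, had 0 to 23 (median 4) and 5 to 136 (median 20), a ratio of 0.265 (0.226 to 0.309). mt-Tp, the proline tRNA, had 0 to 11 (median 2) and 3 to 106 (median 18), a ratio of 0.214 (0.180 to 0.254). mt-Tv, the valine tRNA between the 2 rRNA genes, had 0 to 13 (median 3) and 2 to 80 (median 12) and a ratio of 0.313 (0.258 to 0.377), although both rRNAs beside it had ratios near 1.

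The remaining tRNAs past 2-fold lower were less abundant. mt-Ta (alanine) had a ratio of 0.230, mt-Tr (arginine) 0.218, mt-Tl2 (leucine) 0.217, mt-Tf (phenylalanine) 0.293, mt-Tn (asparagine) 0.340 and mt-Td (aspartate) 0.351. mt-Tg (glycine) had 0.366, mt-Tq (glutamine) 0.390, mt-Tk (lysine) 0.420 and mt-Tt (threonine) 0.462. Their means over all wells were 1.35 (mt-Tl2) to 7.59 (mt-Tq) molecules. mt-Tl1, a leucine tRNA with 251 molecules in all, had a ratio of 0.602 (0.445 to 0.805). In mt-Ts1 (82 molecules) and mt-Ty (50 molecules), the features under a mean of 1, the ratios of 1.09 (0.675 to 1.74) and 0.394 (0.169 to 0.824) had wide intervals. For mt-Th (histidine), 0 molecules allow a level of up to 0.004 molecules per 1000 spike-in molecules.

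mt-Ti, mt-Tw and mt-Tm had ratios near 1. mt-Ti had 3 to 122 molecules (median 53) in low-RNA and 35 to 743 (median 60) in RNA-rich wells, a ratio of 1.07 (1.02 to 1.12). Without the wells of outlying spike-in total the ratio of mt-Ti was 1.17. mt-Tw had 1 to 32 (median 15) and 4 to 174 (median 16), a ratio of 1.06 (0.963 to 1.17). mt-Tm had 8 to 204 (median 82) and 24 to 875 (median 107), a ratio of 0.954 (0.916 to 0.993). mt-Ti and mt-Tw are the windows that begin inside messenger RNAs. The genes they begin in, mt-Nd1 and mt-Nd2, had lower ratios, 0.758 and 0.790. mt-Te and mt-Tq, whose windows also have 99 added bases, 94 and 97 of them opposite another gene, had ratios of 0.286 and 0.390. The part that the windows have in these ratios was not tested.

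By strand, the 9 features on the minus strand, mt-Nd6 and 8 tRNAs, summed to medians of 5.65 and 17.4 molecules per 1000 spike-in molecules in low-RNA and RNA-rich wells and a ratio of 0.301 (0.285 to 0.318). Of the 7 with a mean of at least 1, all 7 were past 2-fold lower, against 92.6% of all genes, and mt-Nd6 was within 2-fold without the wells high in keratins or feeder markers. The other 9 features past 2-fold lower were tRNAs on the plus strand, so ratios this low were found on both strands.

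Nuclear genes that work with the mitochondrial genome were low in low-RNA wells like other genes. Of 77 tested nuclear genes of the respiratory chain, 77 were past 2-fold lower, with a median ratio of 0.184, beside 92.6% and 0.233 for all genes. The 3 most abundant, Cox7c, Atp5b and Cox8a, subunits of complex IV or ATP synthase, had ratios of 0.211, 0.190 and 0.205. All 76 genes of mitochondrial ribosomal proteins were past 2-fold lower (median 0.189; Mrpl15 0.165, Mrpl52 0.229, Mrpl18 0.145). Among genes of mitochondrial transcription, RNA processing and genome maintenance 27 of 28 tested were past 2-fold lower (median 0.223), including Ssbp1, which binds single-stranded mitochondrial DNA (0.256), Ptcd3 (0.287) and Hsd17b10, a subunit of the mitochondrial RNase P (0.217). That list has 51 symbols, of which 40 were in the table.

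Cytosolic ribosomal protein genes gave 89 of 89 past 2-fold lower, beside 92.6% of all genes. Their median ratio was 0.191, with Rps29 at 0.193, Rplp1 at 0.207 and Rpl32 at 0.189. RNAs kept in the nucleus gave 8 of 19 lower and 2 higher, beside 92.6% and 0.0633% of all genes, with a median of 0.555. Malat1 had a ratio of 0.334, Snora75 2.50 and Snora26 0.713. Rn45s, the precursor of cytosolic rRNA, had 0.733. The mitochondrial rRNAs and messenger RNAs and these nuclear RNAs were thus the lists with medians furthest above that of all genes. Of the 47 genes tested with a ratio of at least 0.95, 5 were mitochondrial: mt-Rnr1, mt-Rnr2, mt-Ti, mt-Tw and mt-Tm.

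How surely a molecule belongs to the mitochondrial genome differed between genes. Mouse chromosomes carry copies of stretches of mitochondrial DNA, and the table gives for each feature the molecules from reads that match 1 place in the genome. Over the protein-coding class 31% of molecules came from such reads, and over the rRNAs 98.4%. mt-Co2, mt-Atp8, mt-Atp6, mt-Co3 and mt-Nd4l had 0%, mt-Nd3 3.81%, mt-Co1 28.5% and mt-Nd4 53.2%. mt-Nd1 (100%), mt-Nd6 (99.7%), mt-Cytb (98.2%), mt-Nd2 (92.1%) and mt-Nd5 (91.6%) stood at the other end.

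Annotated nuclear copies were found for the protein-coding genes at different identities. Pseudogenes on chromosome 1, within chr1:24611535-24615565, held the best match of 6 genes: Gm28661 for mt-Co2, Gm10925 for mt-Atp6, Gm28437 for mt-Co3, Gm28438 for mt-Nd3, Gm10222 for mt-Nd4l and Gm28439 for 63.6% of mt-Nd4. Identity was 100% in 5 of them and 99.71% in mt-Nd3. Gm13340 on chromosome 2 matched mt-Co1 at 97.61%, with 37 mismatches, and Gm13339 beside it matched 49.1% of mt-Nd2 at 96.67%, although mt-Nd2 had 92.1% of unique molecules and mt-Co1 28.5%. The copies of mt-Nd5, mt-Nd6 and mt-Cytb on chromosome 4 matched at 92.34%, 93.64% and 92.91%. For mt-Atp8 the best annotated match, Gm28925, was 81.44% identical, and copies outside annotated transcripts were not searched.

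The first 60 aligned bases show the 3 cases, with differing bases in capitals. mt-Co3 and its chromosome 1 copy have 0 differences, mt-Co1 and its chromosome 2 copy 2, and mt-Cytb and its chromosome 4 copy 3.
mt-Co3: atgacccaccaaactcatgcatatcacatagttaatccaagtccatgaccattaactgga
Gm28437: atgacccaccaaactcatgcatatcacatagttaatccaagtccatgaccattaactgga
mt-Co1: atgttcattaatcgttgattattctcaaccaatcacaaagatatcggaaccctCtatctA
Gm13340: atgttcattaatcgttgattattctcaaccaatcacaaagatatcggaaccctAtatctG
mt-Cytb: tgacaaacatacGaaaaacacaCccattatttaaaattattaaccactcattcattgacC
Gm11410: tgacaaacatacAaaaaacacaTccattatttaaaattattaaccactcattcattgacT
The table has 0 features within the chromosome 1 interval, so molecules of a transcribed copy there would be counted under the mitochondrial names. Keeping the 17 features with at least 50% of molecules from uniquely matched reads left the ratio of mitochondrial molecules per spike-in molecule at 0.895.

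**Figure D4:**
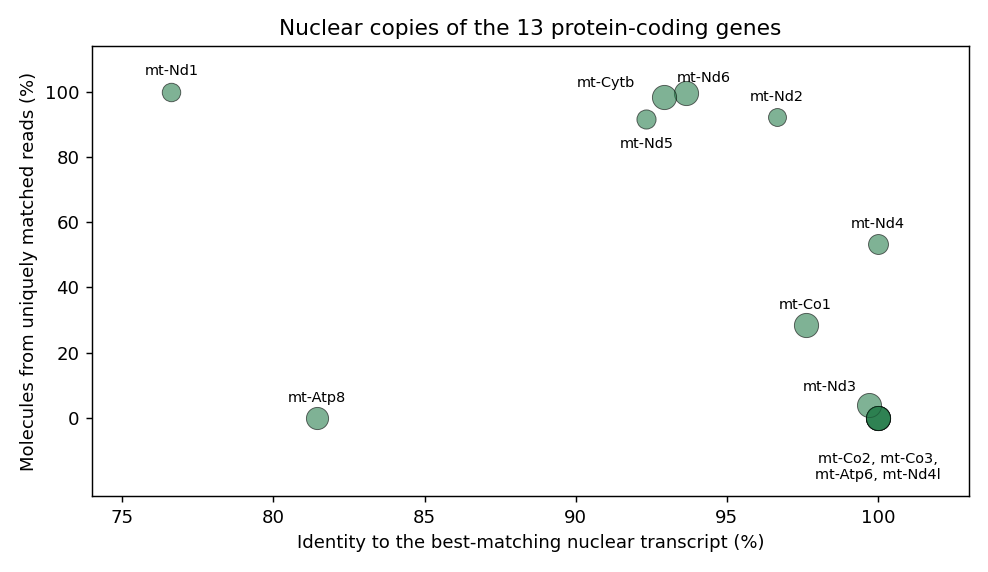
For each of the 13 protein-coding genes, the percent of molecules from uniquely matched reads against the percent identity to its best-matching annotated nuclear transcript; larger points mean that more of the gene is matched. Genes with 100% identity lie at 0%, apart from mt-Nd4 at 53.2%, whose copy covers 63.6% of it, and mt-Atp8 lies at 0% with an identity of 81.44%.

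Several tRNA features also had few uniquely matched molecules: 0% in mt-Tw and mt-Ts2, 2.24% in mt-Tc, 2.33% in mt-Ti and 10.0% in mt-Te, against 100% in mt-Tm, mt-Tp and mt-Tv. For the annotated genes mt-Tw, mt-Ts2, mt-Ti and mt-Te, 0 matches were found in annotated nuclear transcripts. The best match of mt-Tc was 84.13% identical. mt-Tp and mt-Tc had like ratios between the ranges (0.214 and 0.20) with 100% and 2.24% of unique molecules.

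Among RNA-rich wells, nearly all abundant mitochondrial features varied more than spike-ins of the same mean. After division by the total of gene molecules, the squared coefficient of variation (CV) was set against the curve fitted to 65 spike-ins. The spike-ins were divided by the spike-in total, so features and curve had different denominators. A feature counted as above the curve where it was at least 2 times the curve, also without its highest well. This held for 13 of 13 protein-coding genes, 2 of 2 rRNAs and 6 of 19 tRNAs, against 7.07% of 7768 genes. Those genes were not matched to the members by mean, and among members the result followed the mean. All members with a normalized mean of 25.6 or more were above the curve, and none with 21.9 or less. With members also divided by the spike-in total, 20 were above it, against 21. mt-Co3 stood at 8.58 times the curve (CV 30.6%), mt-Rnr1 at 7.08 (30.7%), mt-Rnr2 at 5.87 (24.4%), mt-Nd6 at 4.35 (65.8%) and mt-Nd4l, the lowest of the protein-coding genes, at 2.63 (27.4%). Among tRNAs mt-Tc stood highest, at 10.6 (CV 85.3%), followed by mt-Te at 8.24 (82.1%), mt-Tm at 7.38 (48.5%), mt-Tp at 4.34 (76.6%), mt-Ts2 at 3.75 (70.6%) and mt-Ti at 3.17 (39.3%).

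Divided by the total of mitochondrial molecules instead, 7 features were above the curve and not 21. Most protein-coding genes then lay near or below it (mt-Co2 at 0.488 and mt-Co1 at 0.689), as did mt-Rnr2 at 0.628, whereas mt-Tc stood at 11.1, mt-Te at 7.72, mt-Tp at 5.63, mt-Nd6 at 4.28, mt-Tm at 3.91, mt-Ts2 at 3.60 and mt-Atp8 at 2.48. Relative to the mitochondrial total, most messenger RNAs thus varied by less than 2 times the curve, unlike these tRNAs, mt-Nd6 and mt-Atp8. Protein-coding genes are 71% of that total over all wells and tRNAs 3.48%, so the contrast is set in part by the denominator.

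**Figure D5:**
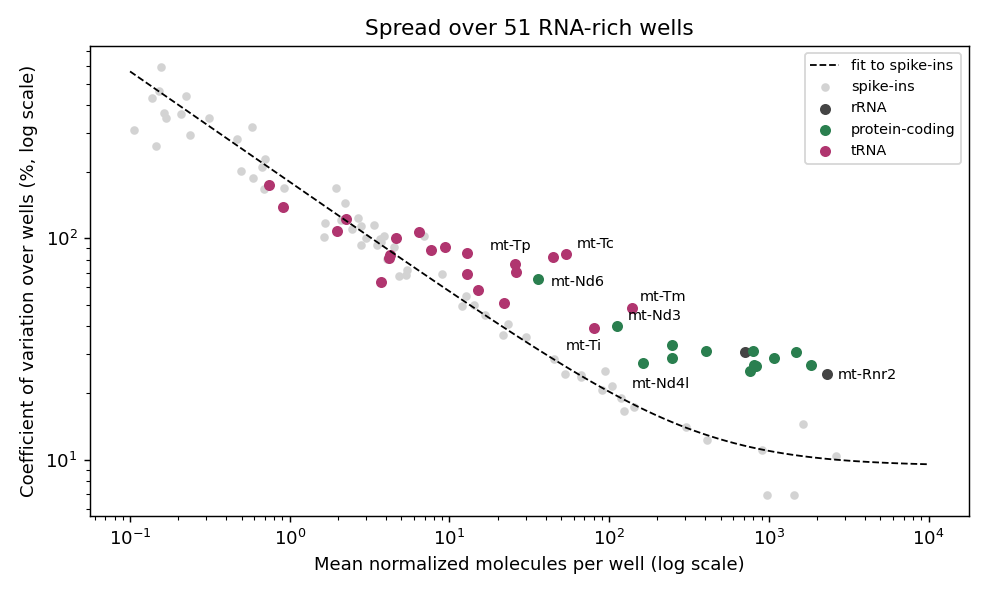
CV over 51 RNA-rich wells against the mean of normalized molecules, both on log axes, for mitochondrial features and spike-ins, with the curve fitted to spike-ins. Mitochondrial features were divided by the gene total and spike-ins by the spike-in total. All protein-coding genes and rRNAs lie above the curve, and mt-Tc and mt-Te furthest above it among tRNAs.

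The features also moved together in different ways across the 51 RNA-rich wells. Per spike-in molecule, the 78 pairs of protein-coding genes had a median Spearman rho of 0.685 and the 120 pairs of tRNAs, without mt-Ti, mt-Tw and mt-Tm, 0.318. Pairs of a tRNA and a protein-coding gene had a median of 0.113. As shares of mitochondrial molecules the medians were 0.0218 for protein-coding pairs and 0.275 for tRNA pairs. In low-RNA wells, where tRNA counts were small, tRNA pairs had medians of 0.0740 per spike-in molecule and 0.0377 as shares. These coefficients describe wells of 1 chip that share their culture, and the features of a pair share each well's spike-in or mitochondrial total.

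The same 16 tRNAs ranged widely among RNA-rich wells, from 8.16 molecules per 1000 spike-in molecules in A08 to 57.7 in H07. In H07 they were 4.56% of mitochondrial molecules, and mt-Tc alone had 218. In A08 they were 0.647%, and mt-Tc had 9. D02 had 4.52% and A09 had 4.96%. Mitochondrial molecules per spike-in molecule were alike in H07 and A08, at 1.27 and 1.26, so the tRNAs differed while the total did not.

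RNA-rich wells high in keratins, with 1 well high in feeder markers, had higher tRNA shares by median as a set. In the 12 RNA-rich wells with keratins Krt8 and Krt18 at 10 or more molecules per 10000 gene molecules, or feeder markers at 100 or more, the 16 tRNAs were 0.930% to 4.96% of mitochondrial molecules (median 2.63%). They were 0.511% to 4.52% (median 1.54%) in the other 39 RNA-rich wells and 0.339% to 2.10% (median 0.542%) in low-RNA wells. The 3 sets of wells overlapped. C03 and H03, at 10.8 keratin molecules per 10000 gene molecules each, were among the 12. E02, the only one of the 12 taken for its feeder markers (108 molecules per 10000 gene molecules), had 9.67 tRNA molecules per 1000 spike-in molecules, or 1.04% of mitochondrial molecules, near the low end. D02, which holds the maximum of the other 39, had 54.2 feeder molecules per 10000 gene molecules, under the limit of 100. H07 had 72.2 keratin molecules per 10000 gene molecules, while E09, with 51.6 tRNA molecules per 1000 spike-in molecules, had 1.76. What part these cells have in the spread of tRNAs was not tested further.

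Of the 37 features 19 had a molecule in every well, among them all rRNAs and protein-coding genes and 4 tRNAs (mt-Ti, mt-Tm, mt-Tw and mt-Te). mt-Tc was found in 44 of 45 low-RNA and 51 of 51 RNA-rich wells. After thinning each well to 8774 gene molecules, it was found in 38 and 49, with 107 and 196 molecules in all. mt-Tr was found in 22 of 45 and 50 of 51 wells, and in 10 and 28 after thinning. On that scale of equal gene molecules per well, sums were taken over 45 low-RNA and 51 RNA-rich wells. mt-Ti had 983 and 291 molecules and mt-Tm 1411 and 561. Several other tRNAs past 2-fold lower per spike-in molecule had sums that were about equal. mt-Tf had 18 and 19 molecules, mt-Tg 17 and 17 and mt-Tt 23 and 22. mt-Tq had 53 and 55 and mt-Te 137 and 160. Others stayed lower in low-RNA wells. mt-Tr had 16 and 41 molecules, mt-Tp 57 and 116, mt-Ts2 63 and 111 and mt-Ta 30 and 57.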

How the data were processed

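The values are molecule counts per feature and well, deposited by the authors; a read with more than 1 match was placed at the most 5' exon among them, per the file headers, and a separate column holds the count from uniquely matched reads. The submitters' processing notes name Bowtie and mm10 (GRCm38); other steps are not given in the sources used here. All 24264 genes were used without repeats; molecules were divided by the well's spike-in total (96 spike-ins), gene total or mitochondrial total. Ratios are of sums over wells, with exact 95% intervals for counts; shares have exact binomial (Clopper-Pearson) intervals. The limit of a count of 0 is 3 molecules. PCR was 21 cycles. With 1 culture there was no test; all genes were computed together, with a mean of at least 1 molecule per well. The technical curve was squared CV = a/mean + b (3.23 and 0.00874), a gamma fit to spike-ins averaging 0.1 or more after division by the spike-in total. Ratios and the curve were checked on simulated data. Annotated copies were searched with BLAST 2.17.0 (word size 11) in GENCODE M21 transcripts. Scripts ran in Python 3.11.15 with matplotlib 3.10.9, scipy 1.17.1 and numpy 2.4.6. Members and gene lists were chosen with earlier results of these data known. Named were all rRNAs and protein-coding genes, the 8 tRNAs of highest mean, those past 2-fold and the 3 most abundant genes of each list; further tRNAs and single wells were named after their values were seen. Alternatives changed the wells, the split, the summary, the reads, the limits and the denominators.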

Additional observations from a re-analysis of the deposited data

How the results depend on the processing

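No paired analysis was possible because each column is 1 well that serves both library forms. Wells are not replicates, so single wells were left out only in the rule for variation. The mitochondrial share of gene molecules, 18.7 percentage points higher by median in low-RNA wells, was 9.25 points higher with the 17 features of at least 50% unique molecules, which hold fewer molecules, and 29.5 higher per 100 gene molecules other than mitochondrial ones, a smaller denominator. With a mean of at least 5 molecules per well, 9 of 26 features were past 2-fold lower, since the filter removed low tRNAs. Dividing by the mitochondrial total left 7 features above the spike-in curve, against 21. With the same 17 features the rRNA share differed by 5.95 points in place of 2.43 and the protein-coding share by -5.94 in place of -2.04. Both moves were within 1 SD over wells (4.75 and 4.72 points), but the differences themselves were then larger than 1 SD. Every other alternative kept these results and the class shares in direction and moved them by at most 1 SD over wells, or by at most 1.5 times for counts. As medians over wells in share of gene molecules, 15 features were past 2-fold higher and 4 lower, and at 1.5-fold 19 were higher and 1 lower. Leaving out mt-Ti, mt-Tw and mt-Tm, and the wells left out for variation, were added after seeing the data. Thinning lowered the wells with a molecule of rare tRNAs in both ranges; a count near 1 molecule per well limits those features.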
